A study of Mus musculus with 18 samples.

Results

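The comparison described here sets 3 RNA sequencing libraries of CD4 T cells cultured with anti-Ox40 antibody and a low dose of stimulating beads against 3 libraries cultured with control Ig and the same bead dose. These 6 libraries were taken by their labels from a series of 18, and all 13075 genes that passed a filter on low values, out of 36528 entries in the deposited table, were compared. The cells were splenic CD4 T cells isolated with a kit from NZB/W F1 females, a cross that develops a lupus-like disease, aged 21 to 27 weeks and with proteinuria of 30 to 100 mg/dL. The anti-Ox40 low beads group received anti-Ox40 IgG1 at 25 µg/mL, and the Control Ig low beads group received an isotype control IgG1 at 25 µg/mL. Both groups, like every group of the series, had IL-2 at 10 U/mL, and both had 0.1 bead per cell carrying antibodies to CD3 and CD28, with RNA taken after 48 h. The other 12 libraries carry the same 2 antibodies at 0 or 1 bead per cell, and are used below to place the low dose. They also enter the filter on low values and the estimate of spread behind every low-bead p-value. The labels do not say whether the 3 replicates of a group came from separate mice or cultures, so every p-value measures the spread between these libraries, which may be technical. Nor do they say whether replicates of the same number in different groups shared a source, and the main fit treats them as unpaired.

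Ox40, the product of Tnfrsf4, is a costimulatory receptor of the TNF receptor superfamily that T cells put on their surface after the T cell receptor is engaged. Its ligand is carried by antigen-presenting cells, and bound Ox40 recruits TRAF adaptors, which feed the canonical and non-canonical NF-kB pathways and support survival, cytokine production and memory formation. Activated T cells also switch to aerobic glycolysis, a programme in which hypoxia-inducible factor (HIF) and the MYC and ATF4 transcription factors take part.

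Levels are the authors' nRPKM values, which are read numbers per unit of gene length that were also scaled to make the libraries comparable. Differences are of log2(nRPKM + 1), anti-Ox40 minus control Ig, with a standard error (SE), and they understate the change of genes with low values. A gene is called when its Benjamini-Hochberg adjusted p from limma, fitted to all 18 libraries, is under 0.05 (2-sided). Values for single libraries are given in the order of replicates 1, 2 and 3. In bulk RNA, fewer cells of a kind and less RNA per cell cannot be told apart.

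The cultures carried the transcripts of CD4 T cells. Cd4 stood at 267, 238 and 241 nRPKM in the anti-Ox40 libraries, against 261, 252 and 244 in the control Ig libraries, and none of 11 tested CD4 T cell markers was called. Of the CD8 genes, Cd8a lay between 0.024 and 0.329 nRPKM in all 6 libraries, and Cd8b1 had 6.25, 5.49 and 6.05 nRPKM under anti-Ox40 and 5.10, 5.53 and 6.52 nRPKM under control Ig. Summed nRPKM over all genes lay between 303387 and 308662 in the anti-Ox40 libraries, and between 292676 and 313042 in the control Ig libraries. Low values of microRNA genes, multiplied by gene length, stepped in units of 1 read. By that step 31.6 to 43.6 reads made up 1 nRPKM in a gene of 1 kb in the anti-Ox40 libraries. In the control Ig libraries 34.0 to 46.0 reads did so. Tnfrsf4 itself (chromosome 4, 156013595 to 156016613) was not called, with 51.8, 46.1 and 45.4 nRPKM under anti-Ox40 and 46.0, 40.0 and 40.3 under control Ig.

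One library stood apart from its group before any gene was tested. Across the 13075 genes, Control Ig low beads replicate 2 correlated at 0.9921, 0.9935 and 0.9908 (Pearson) with the 3 anti-Ox40 libraries, and at 0.9897 and 0.9890 with its own partners. Those partners, control Ig replicates 1 and 3, correlated at 0.9926 with each other. Replicate 2 had 526 genes more than 0.5 log2 units from the mean of its partners, against 289 to 303 genes in the anti-Ox40 libraries and 298 and 324 in the other control Ig libraries. A mean of nuclear RNAs, used here as a sign of RNA quality and given on the log2 scale, was 3.79, 3.87 and 3.89 in the anti-Ox40 libraries, against 3.98, 3.82 and 3.95 in the control Ig libraries. By this measure too, control Ig replicate 2 lay among the anti-Ox40 libraries. The score also followed bead dose, at 3.96 to 4.09 without beads and 3.71 to 3.77 at high beads. It is therefore no measure of RNA quality alone, and what it reflects was not tested.

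At low beads 1254 genes were called (9.59% of those tested), of which 804 were higher (6.15%) and 450 were lower (3.44%) under anti-Ox40, and 3771 had an unadjusted p under 0.05. The increases were larger than the decreases. Among the called genes 92 rose by more than 0.5 and 13 fell by more than 0.5 on the log2 scale, and the median difference was 0.272 among called increases and -0.23 among called decreases. The median over all genes was 0.003, and 6664 of the 13075 had a difference above 0. The shares of 6.15% higher and 3.44% lower are the ones to set beside each list count below. In 1710 genes (13.1%) every anti-Ox40 library was above every control Ig library, and in 1672 genes (12.8%) every anti-Ox40 library was below.

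The count rested on single libraries. It was 554 without anti-Ox40 replicate 1, 311 without anti-Ox40 replicate 2 and 318 without anti-Ox40 replicate 3. It was 131 without control Ig replicate 1, 3522 without control Ig replicate 2 and 137 without control Ig replicate 3. Genes called in all 6 of these fits as well as with every library numbered 95 higher (0.727%) and 12 lower (0.0918%). A fit of all libraries with replicate number as a block called 1645 genes. With only the 6 low-bead libraries in the fit the count was 45 (41 higher and 4 lower), among which were 6 HIF or target genes, 7 glycolysis genes, 3 amino acid and ATF4 target genes and 1 gene of the BATF, IRF and AP-1 list. In that fit no cytokine, aminoacyl-tRNA synthetase, proteasome, nucleotide synthesis, DNA replication, Th2 or naive and quiescence gene was called. The plot of calls with 1 library left out shows these counts beside the correlations.

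**Figure D1:**
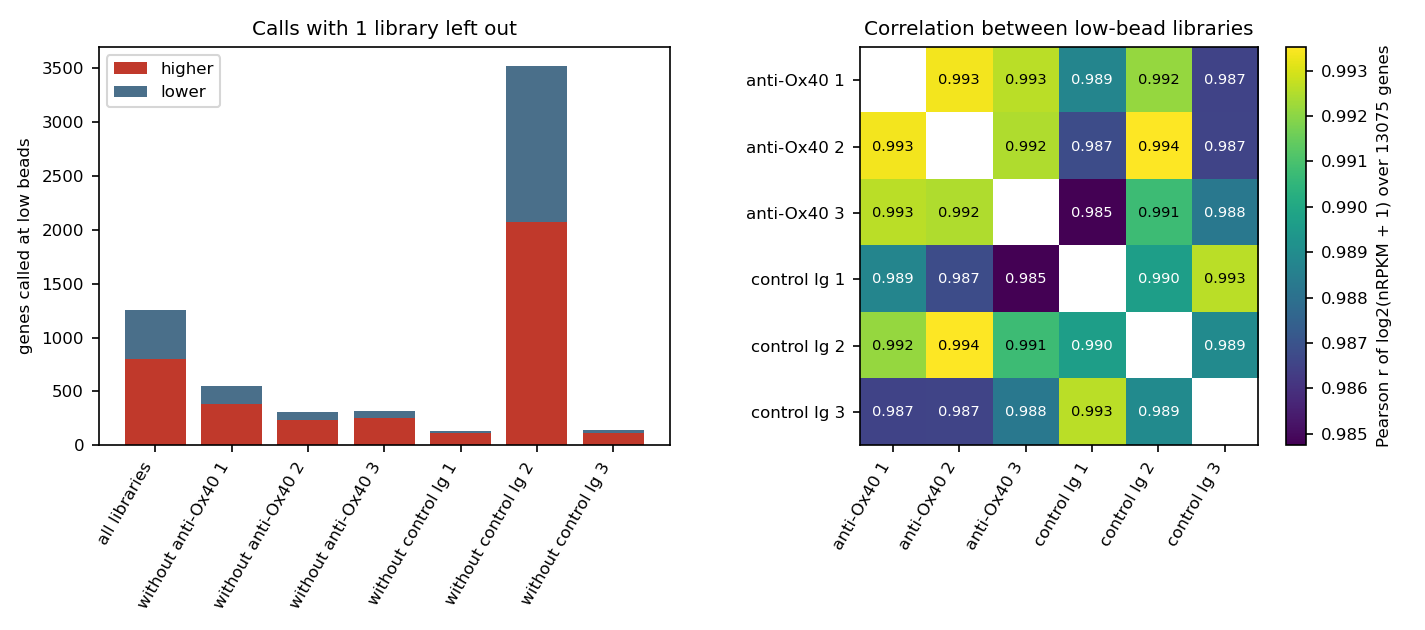
Left, number of genes called at low beads with all libraries and with each of the 6 low-bead libraries left out, higher (red) and lower (blue) under anti-Ox40. Right, Pearson correlation of log2(nRPKM + 1) between the 6 low-bead libraries over 13075 genes; control Ig replicate 2 correlates at 0.991 to 0.994 with the anti-Ox40 libraries and at 0.989 to 0.990 with its own partners.

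**Figure D2:**
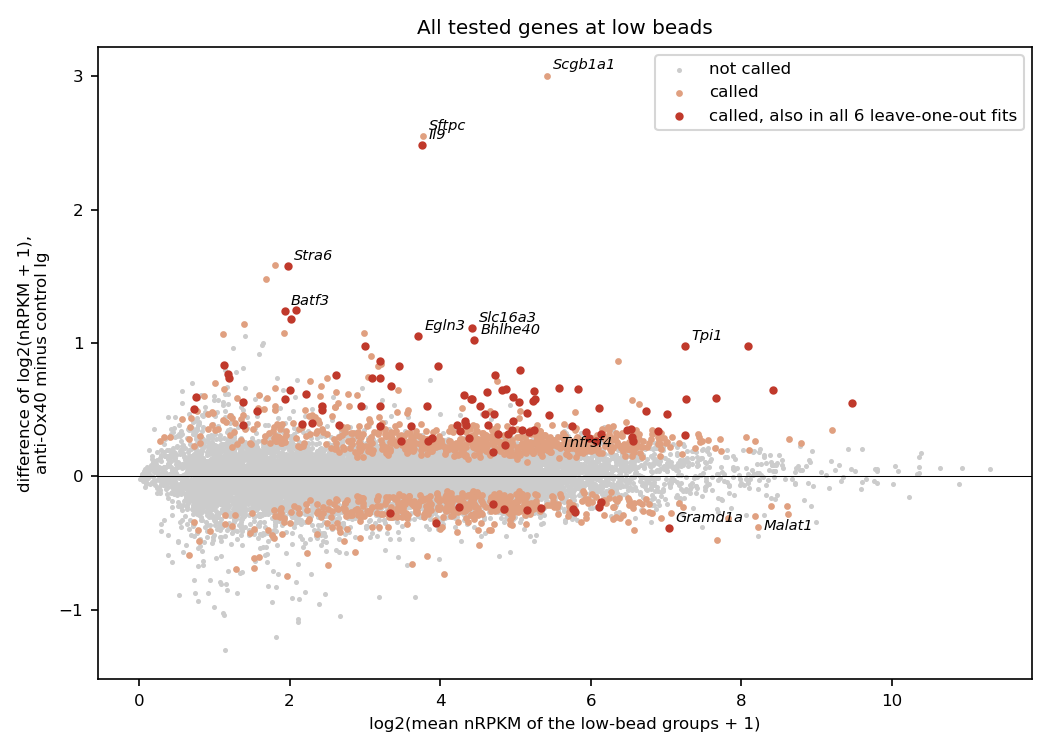
Difference of log2(nRPKM + 1), anti-Ox40 minus control Ig at low beads, against the log2 mean level, for 13075 genes. Called genes are orange, and the 107 called genes that are also called in all 6 fits that leave out 1 library are red; the red points lie mostly above 0.

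HIF and its targets, genes that cells raise when oxygen is scarce, were mostly higher under anti-Ox40. Of 24 tested genes 17 were higher and none was lower, against 6.15% and 3.44% of all genes, and the median difference was 0.44. Their libraries did not overlap, with anti-Ox40 higher, in 19 of the 24 (13.1% of all genes). The called genes were led by Mgarp (1.18), a mitochondrial protein gene, Egln3 (1.05), Ak4 (0.83) and Vegfa (0.76). Of the 17 higher genes, 11 were also called in all 6 fits that leave out 1 library.

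Egln3 (chromosome 12, 54178981 to 54203874) encodes a prolyl hydroxylase that marks HIF subunits for destruction. It stood at 14.2, 17.9 and 17.9 nRPKM in the anti-Ox40 libraries, against 6.58, 8.99 and 6.95 nRPKM in the control Ig libraries. The lowest anti-Ox40 library was above the highest control Ig library, and the difference was 1.05 (SE 0.11, limma adjusted p = 7.68e-05). Mgarp (chromosome 3, 51388412 to 51396547) had 3.87, 4.62 and 5.42 nRPKM under anti-Ox40, against 1.43, 1.46 and 1.54 nRPKM under control Ig. Its groups were far apart relative to their spread (1.18, SE 0.08, limma adjusted p = 1.19e-06). Vegfa, which encodes vascular endothelial growth factor, had 5.87, 6.65 and 7.58 nRPKM under anti-Ox40 and 3.11, 3.85 and 3.67 nRPKM under control Ig, again without overlap.

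Genes of mitochondrial turnover and of protein folding belong to the same group. Bnip3, a receptor for the removal of mitochondria, had 3.71, 3.76 and 4.16 nRPKM under anti-Ox40, against 1.56, 2.49 and 2.36 nRPKM under control Ig (difference 0.65, SE 0.09). Its relative Bnip3l was not called, with 26.6, 26.0 and 26.4 nRPKM under anti-Ox40 and 21.9, 25.7 and 25.2 nRPKM under control Ig. Ddit4, an inhibitor of mTORC1, rose by 0.48 and was called in 3 of the 6 fits that leave out 1 library. The list as a whole had 11 increases without control Ig replicate 1, and 12 to 17 without any other library. The procollagen-modifying enzymes Plod2 (0.53) and P4ha1 (0.33), the oxidoreductase Ero1l (0.53) and the stress-responsive gene Ndrg1 (0.68) were also called.

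The regulators of this group moved in different ways, and not every other gene of the group rose. Hif1a, which encodes the oxygen-regulated HIF subunit, stood at 139, 109 and 112 nRPKM under anti-Ox40, against 122, 104 and 102 nRPKM under control Ig, and was not called. Egln1, the main oxygen sensor among the prolyl hydroxylases, rose by 0.48 (SE 0.06, limma adjusted p = 0.000435). Egln2 was not called (-0.09). Pdk1, a kinase that shuts pyruvate out of mitochondria, had a difference of -0.01, and Kdm3a, a histone demethylase, one of 0.02.

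Glycolysis genes rose beside the HIF targets. Of 19 tested, 14 were higher and none was lower, with a median of 0.46, and in 16 of the 19 the libraries did not overlap. Along the pathway the called genes ran from the glucose transporter Slc2a1 (0.64) to the lactate transporter Slc16a3 (1.11), and Gapdh was not among them. Of the 14, 12 were called in all 6 fits that leave out 1 library. The summed level of the list lay between 1418 and 1495 nRPKM in the anti-Ox40 libraries, against 878, 1076 and 916 nRPKM in the control Ig libraries.

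Slc16a3 (chromosome 11, 120948484 to 120959000) stood at 27.7, 27.3 and 30.3 nRPKM under anti-Ox40, against 11.4, 13.5 and 13.1 nRPKM under control Ig, with no overlap. Its difference of 1.11 (SE 0.06) had an adjusted p of 6.65e-08 by limma. Hk2 (chromosome 6, 82725025 to 82774454) encodes the inducible hexokinase, which traps glucose in the cell. It had 8.89, 10.6 and 9.34 nRPKM under anti-Ox40, against 4.19, 4.82 and 4.16 nRPKM under control Ig, a difference of 0.98 (SE 0.08). Hk1, the constitutive hexokinase, differed by 0.20. Tpi1, triosephosphate isomerase, had 192, 208 and 204 nRPKM under anti-Ox40, against 90.5, 117 and 98.7 nRPKM under control Ig. Ldha, which makes lactate, had 226, 252 and 245 nRPKM under anti-Ox40, against 144, 186 and 152 nRPKM under control Ig.

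Some of these genes have near-identical copies, and it is not given how the authors assigned reads that match several places. Aldoa (0.65) has a near copy in Aldoart1 (0.62), Eno1 (0.46) in Eno1b (0.47), and Tpi1 (0.98) in LOC102642803 (0.98), and the members of each pair may share reads. Gapdh lay between 2.60 and 3.44 nRPKM in all 6 libraries and was not called, and Pgk1 and Pgam1 also had low values. Their levels are therefore uncertain.

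The promoters of this group are shown because the best-known HIF binding element has a short core, ACGTG, that can be read by eye. Each sequence is the 250 bases before a RefSeq transcription start on GRCm38.p6, written 5′ to 3′ on the strand of the gene, with each match to ACGTG or its reverse complement CACGT in capitals. Egln3 lies on the minus strand (chr12:54203875-54204124), as do Mgarp (chr3:51396548-51396797), Hk2 (chr6:82774455-82774704) and Bnip3 (chr7:138909507-138909756). Bnip3 has 2 overlapping matches, 1 on each strand, which together spell the palindrome CACGTG, also known as an E-box.
Egln3: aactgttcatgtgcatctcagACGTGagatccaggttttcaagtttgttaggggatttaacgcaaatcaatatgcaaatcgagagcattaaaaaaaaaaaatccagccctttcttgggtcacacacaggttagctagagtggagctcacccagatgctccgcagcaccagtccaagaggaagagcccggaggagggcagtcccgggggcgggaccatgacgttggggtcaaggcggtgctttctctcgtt
Mgarp: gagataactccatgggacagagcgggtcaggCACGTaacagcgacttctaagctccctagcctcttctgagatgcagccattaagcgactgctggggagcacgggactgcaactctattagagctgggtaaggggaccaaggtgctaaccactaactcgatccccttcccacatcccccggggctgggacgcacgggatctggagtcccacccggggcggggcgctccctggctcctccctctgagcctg
Hk2: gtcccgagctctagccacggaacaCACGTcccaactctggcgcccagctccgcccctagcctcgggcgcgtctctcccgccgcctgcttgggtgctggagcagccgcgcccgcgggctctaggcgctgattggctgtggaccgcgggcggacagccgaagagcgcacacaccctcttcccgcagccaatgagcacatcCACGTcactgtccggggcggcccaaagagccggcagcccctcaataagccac
Bnip3: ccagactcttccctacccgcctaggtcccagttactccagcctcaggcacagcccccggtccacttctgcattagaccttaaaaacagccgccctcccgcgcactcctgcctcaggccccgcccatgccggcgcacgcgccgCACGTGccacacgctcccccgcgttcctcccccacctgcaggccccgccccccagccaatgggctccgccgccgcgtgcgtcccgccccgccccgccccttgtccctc

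Over the RefSeq windows of 300 bases (250 before the start and 50 after it), 8730 of the tested genes had at least 1 window, and 29.8% of them held ACGTG on either strand. Among the HIF and target genes 16 of 20 with a window held it (80%), and among the glycolysis genes 13 of 18 (72.2%). Of the genes called higher at low beads 229 of 570 held it (40.2%), and of those called lower 91 of 310 (29.4%). For the genes called higher in all 6 fits that leave out 1 library the share was 41 of 70 (58.6%). The longer CACGTG, which contains the core, was in 12% of all tested genes with a window and in 5 of 20 HIF and target genes. These motifs were picked after the gene values had been seen, genes with several windows had more chances to match, and a match is a string of letters and not a measured binding site. The HIF list is one of known targets, so its share may follow from how the list was made and is no result of these data. The genes called higher in all 6 fits include 11 HIF or target genes and 12 glycolysis genes. The promoters printed were picked by hand, and all hold a match.

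**Figure D3:**
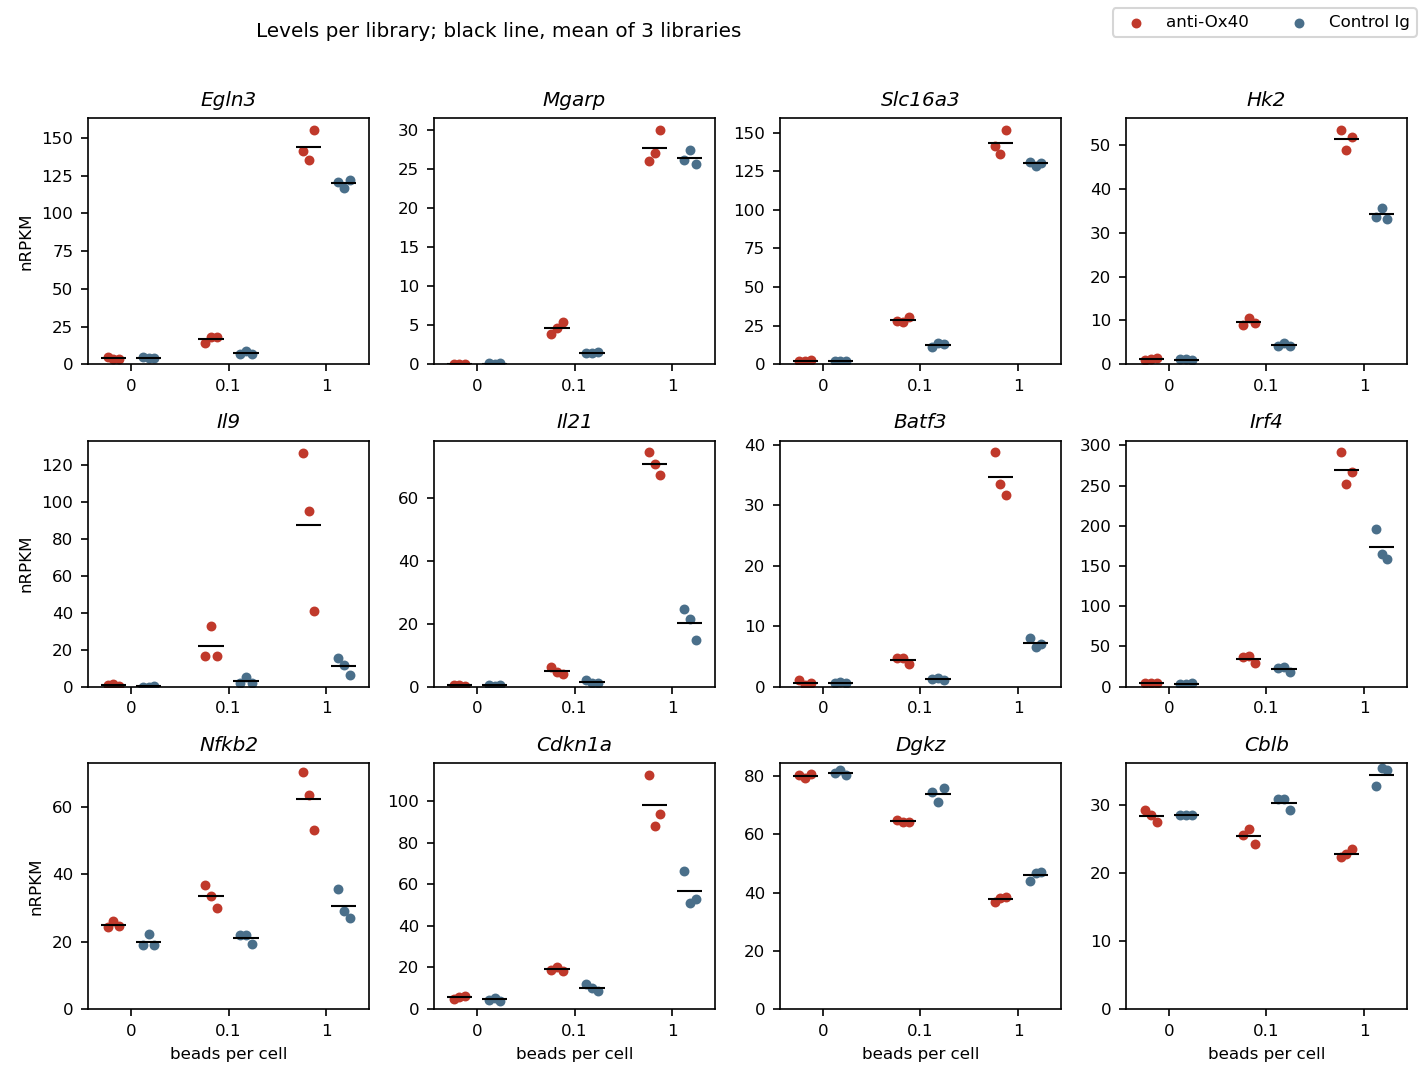
Level in nRPKM of 12 genes in each library (points) at 0, 0.1 and 1 bead per cell, anti-Ox40 (red) left of control Ig (blue), with the mean of 3 libraries as a black line. At 0.1 bead per cell the groups do not overlap in any of the 12 genes, with anti-Ox40 above control Ig in the first 10 and below it in Dgkz and Cblb.

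By the rule for named genes, the largest called increases were those of the lung epithelium markers Scgb1a1 and Sftpc, described below with other cell types. Beside the lists above, single genes with roles in transcription, uptake and metabolism also had large increases. Bhlhe40 (chromosome 6, 108660629 to 108666925), a repressor needed for cytokine production by T helper cells, had 31.2, 26.6 and 27.2 nRPKM under anti-Ox40, against 13.3, 13.7 and 13.3 nRPKM under control Ig. Its control Ig libraries lay close together, and the difference of 1.02 (SE 0.06) had an adjusted p of 1.12e-07 by limma. Stra6, the receptor that takes up retinol, had 4.59, 6.86 and 3.23 nRPKM under anti-Ox40, against 0.63, 1.82 and 0.512 nRPKM under control Ig. Hilpda, a lipid droplet protein gene, rose by 0.74, Galk1, galactokinase, by 0.76, and Marcksl1, an actin-associated protein gene, by 0.86. Kynu, which encodes a kynurenine-degrading enzyme, rose by 0.77. The desaturase gene Scd2 had 37.8, 44.3 and 41.7 nRPKM under anti-Ox40, against 21.5, 27.3 and 21.5 nRPKM under control Ig.

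Cytokine genes were the next group. Of 18 tested, 8 were higher and none was lower, against 6.15% and 3.44% of all genes, and the median difference was 0.56. The count was 4 without control Ig replicate 1, 5 without control Ig replicate 3, 6 to 9 without any other library, and 0 with only the low-bead libraries in the fit. The 8 were Il9 (2.48), Il21 (1.25), Il13 (1.08), Il24 (1.07), Csf2 (0.70), Il4 (0.68), Ebi3 (0.61) and Lif (0.53).

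Il9 (chromosome 13, 56479277 to 56482257), the cytokine of Th9 cells, stood at 16.4, 33.0 and 16.6 nRPKM under anti-Ox40, against 2.23, 5.41 and 1.86 nRPKM under control Ig. Replicate 2 was the highest library in each group, and the groups did not overlap (difference 2.48, SE 0.41, limma adjusted p = 0.00433). Il21 (chromosome 3, 37222759 to 37232636), which helps B cells, had 6.36, 4.52 and 3.99 nRPKM under anti-Ox40 and 2.21, 1.23 and 1.12 nRPKM under control Ig. Il13, a Th2 cytokine gene, had 6.64, 14.3 and 8.34 nRPKM under anti-Ox40, against 2.80, 6.36 and 3.17 nRPKM under control Ig. Control Ig replicate 2 was then only just below the lowest anti-Ox40 library. Il2 was not called, although its libraries did not overlap, with 0.945, 1.62 and 0.566 nRPKM under anti-Ox40 and 0.229, 0.148 and 0.31 nRPKM under control Ig. Ifng, the Th1 cytokine gene, overlapped between groups (0.19, not called).

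The Il9 promoter is shown because it holds the AP-1 element TGANTCA, at which JUN and BATF family factors bind. It is on the minus strand of GRCm38.p6 (chr13:56482258-56482507, RefSeq), with the match in capitals. The element was in 2 of 13 cytokine genes with a window and in 5.7% of all tested genes with one. Of the genes called higher at low beads 26 of 570 held it (4.56%), and of those called lower 18 of 310 (5.81%). For the genes called higher in all 6 fits that leave out 1 library the share was 6 of 70 (8.57%).
Il9: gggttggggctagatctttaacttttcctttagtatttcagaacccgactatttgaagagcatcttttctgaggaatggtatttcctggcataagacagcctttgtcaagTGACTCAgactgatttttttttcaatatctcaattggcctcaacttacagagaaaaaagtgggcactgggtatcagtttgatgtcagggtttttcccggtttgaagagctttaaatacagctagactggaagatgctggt

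Some transcription factor genes of the BATF, IRF and AP-1 families were higher under anti-Ox40. Of 16 tested, 4 were higher and 1 was lower, against 6.15% and 3.44% of all genes. The 4 increases were called in all 6 fits that leave out 1 library. Batf3 (chromosome 1, 191098414 to 191108943) had 4.71, 4.71 and 3.73 nRPKM under anti-Ox40, against 1.28, 1.41 and 1.13 nRPKM under control Ig, a difference of 1.24 (SE 0.14). Irf4, the partner of BATF proteins at shared DNA elements, had 36.9, 38.5 and 29.5 nRPKM under anti-Ox40, against 23.0, 24.5 and 18 nRPKM under control Ig. Batf rose by 0.52 and Junb by 0.49. Bach1, a related leucine zipper repressor, fell by 0.20, and this call was kept in 3 of those fits, being lost when anti-Ox40 replicate 2, anti-Ox40 replicate 3 or control Ig replicate 1 was left out.

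Among NF-kB subunits, inhibitors and feedback genes 3 of 21 were higher and 3 were lower (6.15% and 3.44% of all genes), with a median of 0.02. The increases were the non-canonical subunit gene Nfkb2 (0.64), the inhibitor gene Nfkbia (0.54) and the atypical inhibitor gene Bcl3 (0.30). Nfkb2 (chromosome 19, 46300994 to 46312400) had 36.7, 33.6 and 30.0 nRPKM under anti-Ox40, against 21.9, 21.9 and 19.2 nRPKM under control Ig, and was called in all 6 fits that leave out 1 library. Rel, a canonical subunit gene, fell by 0.27, Nfkbiz by 0.30 and the kinase gene Ikbke by 0.29. Nfkbia and Bcl3 were each called in 2 of those 6 fits, and the list had 1 increase when control Ig replicate 1 or 3 or anti-Ox40 replicate 1 or 2 was left out. The 3 decreases were not called in any fit with another library left out than control Ig replicate 2. Relb (0.29) and the feedback inhibitor gene Tnfaip3 (0.06) were not called.

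Of Ox40, its ligand and the TRAF adaptors, 1 of 13 genes was called. It was Ikbkb, a kinase subunit gene of the canonical pathway, which fell by 0.22, a call kept in 1 of the 6 fits that leave out 1 library (without control Ig replicate 2). Tnfsf4, the Ox40 ligand gene, had 1.64, 1.73 and 1.89 nRPKM under anti-Ox40, against 1.14, 1.63 and 1.11 nRPKM under control Ig. Its libraries did not overlap, and it was not called (0.27, SE 0.11, limma adjusted p = 0.126). Traf1 had a difference of -0.04, Traf2 of 0.05 and Traf5 of -0.21, and none of them was called.

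Other TNF receptors were split, with 2 of 18 higher and 3 lower (6.15% and 3.44% of all genes). Tnfrsf8, which encodes CD30, had 39.1, 32.0 and 26.1 nRPKM under anti-Ox40, against 24.4, 19.0 and 15.1 nRPKM under control Ig. Its libraries ran in the same order in both groups without overlap, and the difference was 0.71 (SE 0.14, limma adjusted p = 0.0116). Tnfrsf10b, a death receptor gene, rose by 0.35. Cd27, a costimulatory receptor of naive and memory cells, had 101, 92.2 and 102 nRPKM under anti-Ox40, against 116, 114 and 125 nRPKM under control Ig. Tnfrsf14, which encodes HVEM, fell by 0.27 and Tnfrsf26 by 0.20. Of these 5, none was called without control Ig replicate 3, 1 without control Ig replicate 1, 1 without anti-Ox40 replicate 2 and 2 without anti-Ox40 replicate 3.

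Ligands of the family gave 3 increases and no decrease among 11 genes. Lta, lymphotoxin alpha, had 110, 119 and 104 nRPKM under anti-Ox40, against 73.7, 73.5 and 75.2 nRPKM under control Ig. Ltb, lymphotoxin beta, had 484, 475 and 485 nRPKM under anti-Ox40 and 386, 437 and 391 nRPKM under control Ig. Tnfsf11, which encodes RANKL, rose by 0.26. None of the 3 was called without control Ig replicate 1 or 3, nor without anti-Ox40 replicate 1 or 3.

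**Figure D4:**
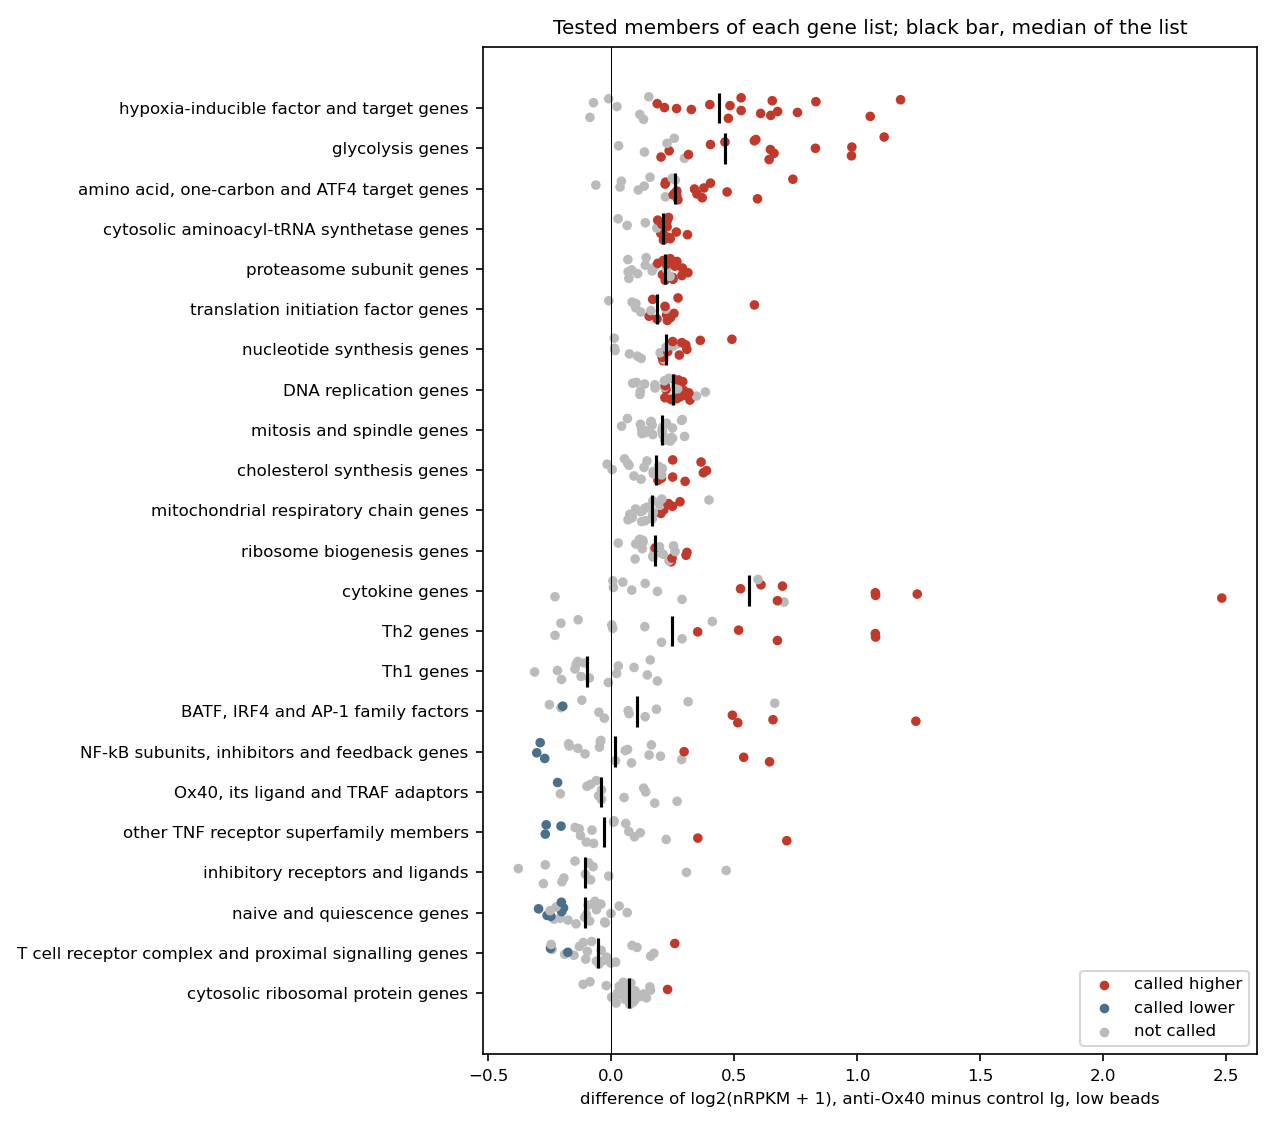
Difference of log2(nRPKM + 1), anti-Ox40 minus control Ig at low beads, for each tested member of 23 gene lists (points), called higher (red), called lower (blue) or not called (grey), with the median of each list as a black bar. The HIF target and glycolysis lists have medians of 0.44 and 0.46, and the naive and quiescence list has one of -0.11.

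Genes of biosynthesis formed a broad set of small increases, to be set beside 6.15% of all genes called higher and 3.44% called lower. Of 24 amino acid, one-carbon and ATF4 target genes 15 were higher (median 0.26), of 18 aminoacyl-tRNA synthetase genes 14 (0.21), and of 25 proteasome subunit genes 14 (0.22). Nucleotide synthesis had 10 of 21 (0.22), translation initiation 10 of 17 (0.19), cholesterol synthesis 8 of 22 (0.18) and endoplasmic reticulum chaperones 8 of 18 with 1 lower (0.15). Apart from that chaperone gene, Edem1, none of these lists held a decrease. Ribosome biogenesis had 5 of 25 (0.18) and the mitochondrial respiratory chain 6 of 26 (0.17). In both all members had a difference above 0, against 6664 of all 13075 genes. Only 1 of 36 cytosolic ribosomal protein genes was called (median 0.07).

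Asns, asparagine synthetase and a target of ATF4, had 35.1, 36.9 and 38.3 nRPKM under anti-Ox40, against 23.9, 25.7 and 22.4 nRPKM under control Ig. It was called in all 6 fits that leave out 1 library (0.60, SE 0.09). Cth, which makes cysteine, rose by 0.74, and Mthfd1l, a mitochondrial folate enzyme gene, by 0.47. Gars, glycyl-tRNA synthetase, had 103, 109 and 104 nRPKM under anti-Ox40, against 79.0, 94.2 and 80.7 nRPKM under control Ig. Control Ig replicate 2 lay between its partners and the anti-Ox40 libraries, and the same order held for the proteasome gene Psmb2, with 98.7, 108 and 108 nRPKM under anti-Ox40 and 78.4, 94.0 and 80.9 nRPKM under control Ig. Eif4ebp1, which encodes an inhibitor of cap-dependent translation, rose by 0.58, the largest value among the translation initiation genes. Cyp51, a sterol demethylase, rose by 0.39, and Slc25a1, the mitochondrial citrate carrier, by 0.29.

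These lists depended on the control Ig libraries. Without control Ig replicate 1, and likewise without control Ig replicate 3, 3 amino acid and ATF4 target genes were called, and no aminoacyl-tRNA synthetase, proteasome or nucleotide synthesis gene. Without control Ig replicate 2 the counts were 17, 17, 20 and 16 for those 4 lists. Without anti-Ox40 replicate 1 they were 10, 2, 8 and 6, without anti-Ox40 replicate 2 they were 5, 0, 2 and 2, and without anti-Ox40 replicate 3 they were 6, 3, 5 and 5. With the nuclear RNA score, which also followed bead dose, as a covariate they were 4, 0, 1 and 2. The HIF target list then had 11 and the glycolysis list 13. Translation initiation, cholesterol synthesis and chaperone genes each had 1 increase without control Ig replicate 1 or 3, and respiratory chain and ribosome biogenesis genes had none.

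Genes of DNA replication were higher in part. Of 29 DNA replication genes 14 were higher and all 29 had a difference above 0 (median 0.25), against 6664 of all 13075 genes above 0. Mcm3, a subunit of the replicative helicase, had 106, 117 and 105 nRPKM under anti-Ox40, against 80.9, 102 and 80.4 nRPKM under control Ig. The highest control Ig library, replicate 2, was close to the lowest anti-Ox40 library. Without control Ig replicate 2, 27 of the 29 were called, and without control Ig replicate 1 or 3 or anti-Ox40 replicate 2, none was. Without anti-Ox40 replicates 1 and 3 the counts were 4 and 2. Of 25 mitosis and spindle genes none was called, although all 25 had a difference above 0 (median 0.21). Without control Ig replicate 2, 11 of them were called. The fit with replicate number as a block also called 11.

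Among G1 regulators, Cdkn1a, the inhibitor p21, rose beside the kinase genes Cdk4 (0.29) and Cdk6 (0.24). Cdkn1a (chromosome 17, 29090979 to 29100722) had 18.9, 20.1 and 18.2 nRPKM under anti-Ox40, against 12, 10.4 and 8.69 nRPKM under control Ig. It was called in all 6 fits that leave out 1 library (0.83, SE 0.12), whereas Cdk4 was called in 3 and Cdk6 in 2 of them. Of 18 p53 target genes 5 were higher and 1 was lower, and Phlda3 (0.63) followed Cdkn1a in size. The 5 increases became 2 without control Ig replicate 1, 1 without control Ig replicate 3, and 3, 1 and 2 without anti-Ox40 replicates 1, 2 and 3. No BCL2 family survival gene of 10 was called, and Bcl2l1, which encodes BCL-XL, had 12.4, 15 and 13.8 nRPKM under anti-Ox40 and 9.87, 13.8 and 11.1 nRPKM under control Ig.

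Of the lists of T helper subsets, that of Th2 genes had the most calls. Among Th2 genes 5 of 14 were higher (6.15% of all genes), with a median of 0.25. Besides the cytokine genes Il4, Il13 and Il24 these were the chemokine receptor genes Ccr8 (0.52) and Ccr4 (0.35). The list had 2 calls when anti-Ox40 replicate 2 was left out, none when control Ig replicate 1 was, and 1 when control Ig replicate 3 was. Gata3, the Th2 master factor, was not called (0.20). No Th1 gene of 16 was called, and Tbx21, the Th1 factor, had a difference of -0.01. Of 9 Th17 genes 2 were higher, Il21 and Batf (list median -0.01). Both were called in all 6 fits that leave out 1 library. In the regulatory T cell list 2 of 14 were higher, Il2ra and Ebi3, and Foxp3 overlapped between groups, with 75.2, 48.9 and 61.5 nRPKM under anti-Ox40 and 80.3, 54.2 and 67.3 nRPKM under control Ig.

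Of 17 surface activation and costimulation genes 3 were higher, Cd69 (0.36), Tfrc (0.28) and Slc3a2 (0.22), and 6 had a difference below 0. None of the 3 was called without control Ig replicate 1 or 3, and the list had 1 call without each anti-Ox40 library. Il2ra, which encodes CD25, had 285, 312 and 284 nRPKM under anti-Ox40, against 232, 258 and 229 nRPKM under control Ig (0.29, SE 0.07, limma adjusted p = 0.0287). Cd69, an early activation marker, had 10.0, 10.2 and 9.27 nRPKM under anti-Ox40, against 6.79, 7.88 and 7.74 nRPKM under control Ig. Il2ra was called in 1 and Cd69 in 2 of the 6 fits that leave out 1 library. Vim, a cytoskeletal filament gene, was called in all 6 such fits, with 863, 839 and 833 nRPKM under anti-Ox40 and 582, 594 and 550 nRPKM under control Ig. None of 13 inhibitory receptor and ligand genes, 18 immediate early genes, 13 NFAT pathway genes and 14 IL-2 and STAT5 response genes was called. One of 21 interferon-stimulated genes was called, Ifit2, which fell by 0.17 and was called in none of the 6 fits that leave out 1 library.

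Decreases were small, and few kept their call. Of 25 naive and quiescence genes 6 were lower and none was higher (median -0.11), and 23 had a difference below 0. Of all 13075 genes 3.44% were called lower, and 6664 had a difference above 0. Dgkz (chromosome 2, 91932822 to 91976443), a kinase that removes the second messenger diacylglycerol, had 64.9, 64.1 and 64.3 nRPKM under anti-Ox40, against 74.6, 71.2 and 75.8 nRPKM under control Ig. Its anti-Ox40 libraries lay within 1 nRPKM of each other, and it was called in all 6 fits that leave out 1 library (-0.19, SE 0.03). Dgka fell by 0.30, Foxp1, a factor of T cell quiescence, by 0.26, Il6ra by 0.25, Btg1 by 0.20 and Zfp36l2 by 0.20. The list had 3 decreases without control Ig replicate 1, 1 without control Ig replicate 3, and 4, 3 and 2 without anti-Ox40 replicates 1, 2 and 3. Among 8 Gimap genes, GTPases of lymphocyte survival, all had a difference below 0 and 2 were called, Gimap8 (-0.29) and Gimap3 (-0.22). Both calls were lost when any low-bead library but control Ig replicate 2 was left out. Ccr7, a homing receptor gene of naive cells, and Il7r, which encodes the IL-7 receptor, were not called (-0.02 and -0.11).

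Cblb (chromosome 16, 52031230 to 52208047), a ubiquitin ligase that restrains T cell receptor signalling, had 25.5, 26.4 and 24.2 nRPKM under anti-Ox40, against 30.8, 30.9 and 29.2 nRPKM under control Ig. The groups did not overlap (-0.25, SE 0.04, limma adjusted p = 0.00441). In the list of T cell receptor complex and proximal signalling genes Plcg1 also fell, by 0.18, and Themis rose by 0.26, among 24 tested, and Themis was called in 1 of the 6 fits that leave out 1 library. The largest decreases by the rule for named genes were Tbx6 (-0.48), Pgpep1l (-0.46), Art2b (-0.42) and Cmah (-0.42), of which Cmah encodes the enzyme of sialic acid hydroxylation. Tbx6 was called in 3 and each of the other three in 1 of the 6 fits that leave out 1 library. Gramd1a, a sterol transfer protein gene, had 114, 111 and 112 nRPKM under anti-Ox40, against 153, 135 and 155 nRPKM under control Ig. It was called in all 6 fits that leave out 1 library, as were Klhl24 (-0.35), Phf1 (-0.26), Man2a2 (-0.25), Mef2d (-0.25) and Tmc6 (-0.24). Samhd1, which degrades nucleotides, had 272, 252 and 247 nRPKM under anti-Ox40, against 347, 335 and 323 nRPKM under control Ig.

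The antibody comparison at the other doses takes its means from other libraries, so the values can be set side by side. The estimate of spread is shared between the doses. Without beads 18 genes were called (0.138%), all higher (7 without control Ig no beads replicate 2, 30 without anti-Ox40 no beads replicate 1, and 0 to 2 without any other library), and at high beads 3397 (26%), of which 1877 were higher (14.4%) and 1520 were lower (11.6%). The high-bead count was 2065 without anti-Ox40 high beads replicate 1. Of the 804 genes called higher at low beads, 400 (49.8%, and 21.3% of the 1877) were also higher at high beads and 6 were lower. Of the 450 called lower, 206 (45.8%, and 13.6% of the 1520) were also lower at high beads. Between high and no beads in control Ig alone, 82.3% of all genes were called, 43.4% higher and 38.9% lower. The means of that comparison use no low-bead library. Of the 804, 782 (97.3%) were higher in that comparison and 10 were lower, and of the 450, 420 (93.3%) were lower.

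The difference of the antibody effect between doses was tested in the same model. Between low and no beads 35 genes were called (0.268%), of which 34 had the larger effect at low beads and 1 (0.00765%), Mir3112, the smaller. Of these 34, 9 were glycolysis genes and 7 were HIF or target genes. Batf3 had a difference of effects of 1.28 (SE 0.20), Mgarp of 1.21 (SE 0.12) and Slc16a3 of 1.01 (SE 0.08), with limma adjusted p-values of 0.00785, 0.000157 and 3.89e-05. Without beads Slc16a3 stood at 2.14, 2.17 and 2.47 nRPKM under anti-Ox40, against 2.05, 2.08 and 1.99 nRPKM under control Ig. The count of 35 became 1866 without control Ig low beads replicate 2 and 67 without anti-Ox40 no beads replicate 3, and lay between 19 and 34 without any other library.

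Between low and high beads 414 genes were called (3.17%), with the effect at low beads above that at high beads in 222 (1.7%) and below it in 192 (1.47%). The count of 414 became 1243 without control Ig low beads replicate 2 and 102 without control Ig high beads replicate 3, the widest moves among the libraries left out. HIF and target genes gave 9 and glycolysis genes 9 of the 222, and 1 HIF or target gene was among the 192. Mgarp had 26.1, 27.1 and 30.0 nRPKM under anti-Ox40 at high beads, against 26.2, 27.5 and 25.7 nRPKM under control Ig, so that the groups overlapped there. The difference of effects was 1.11 (SE 0.12, limma adjusted p = 0.000329). Tpi1 had 701, 687 and 724 nRPKM under anti-Ox40 at high beads, against 666, 654 and 661 nRPKM under control Ig, and a difference of effects of 0.89 (SE 0.10). Under control Ig both genes stood several times higher at high beads than at low beads. At high beads the HIF and target genes gave 5 increases and 1 decrease (median 0.13), and the glycolysis genes 3 increases (median 0.07).

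**Figure D5:**
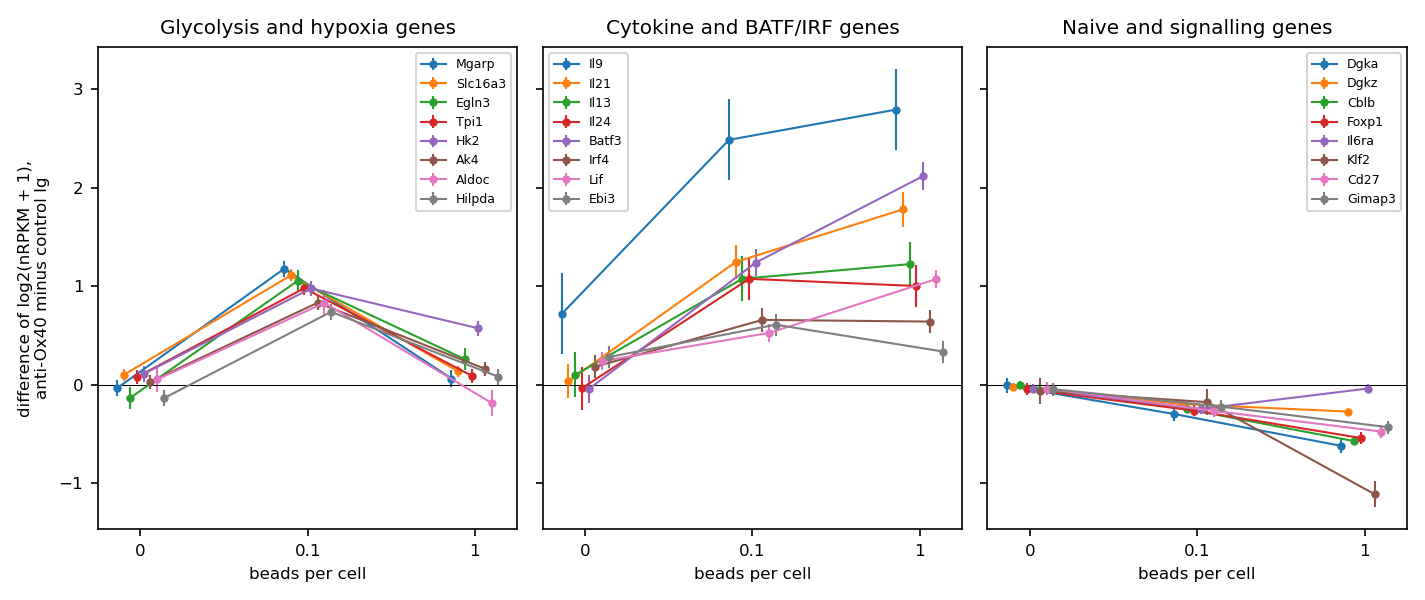
Difference of log2(nRPKM + 1), anti-Ox40 minus control Ig, at 0, 0.1 and 1 bead per cell, with its standard error as a bar, for 8 genes in each of 3 groups. The glycolysis and hypoxia genes shown are highest at 0.1 bead per cell, and Batf3 is highest at 1 bead per cell; for Il9 and Il21 the values at 0.1 and 1 bead per cell did not differ past the threshold.

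Other genes had a larger antibody effect at high beads. Batf3 rose by 2.12 there and by 1.24 at low beads, a difference of effects of -0.88 (SE 0.20, limma adjusted p = 0.0299). Btla, an inhibitory receptor gene, had 10.9, 11.7 and 12.1 nRPKM under anti-Ox40 at low beads, against 11.4, 10.1 and 13.8 nRPKM under control Ig, and was not called. At high beads it had 21.9, 19.1 and 16.1 nRPKM under anti-Ox40, against 8.69, 6.73 and 6.88 nRPKM under control Ig. Klf2, a factor of quiescence, was not called at low beads (-0.18) and fell by 1.11 at high beads. For Il9, Il21 and Nfkb2 the effects at low and high beads did not differ past the threshold, with differences of -0.31 (SE 0.58), -0.53 (SE 0.25) and -0.36 (SE 0.15).

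Across the called genes, control Ig replicate 2 lay toward the anti-Ox40 group. Among the 804 genes called higher it was between the mean of its partners and the anti-Ox40 mean in 708 (88.1%), and nearer to the anti-Ox40 mean in 419 (52.1%). Among the 450 called lower it was between those means in 378 (84%), and nearer to the anti-Ox40 mean in 172 (38.2%). The called genes were picked with this library in the control Ig mean. Its position was not computed over all tested genes, so these shares describe the called genes only. Malat1, an abundant nuclear long RNA, had 213, 248 and 254 nRPKM under anti-Ox40, against 453, 173 and 435 nRPKM under control Ig. H60b, an NKG2D ligand gene, had 1.48, 1.40 and 2.19 nRPKM under anti-Ox40 and 5.0, 0.71 and 3.80 nRPKM under control Ig. In both genes control Ig replicate 2 was below every anti-Ox40 library. What set this library apart was not tested, and the labels give no batch.

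Markers of other cell types were mostly low, and those of lung epithelium and red cells were higher under anti-Ox40 at low beads but not at high beads. B cell markers were high in replicate 3 of both groups, where Ms4a1, which encodes CD20, stood at 10.6 nRPKM under anti-Ox40 and 11.9 nRPKM under control Ig, against 0.305 to 0.479 nRPKM in the other 4 libraries. No tested marker of B cells (10), plasma cells (6), monocytes and macrophages (14), neutrophils (5), dendritic cells (2), NK cells (5) or platelets (8) was called, and no red cell marker passed the filter. The summed level of the 7 red cell markers in the table nevertheless did not overlap, at 1.95 to 4.54 nRPKM under anti-Ox40 and 1.43 to 1.69 nRPKM under control Ig. At high beads this sum was lower under anti-Ox40, at 1.04 to 1.27 nRPKM against 1.38 to 3.255 nRPKM under control Ig. The values that follow are again from low beads. Hbb-b1, a beta globin gene, had 0.995, 0.691 and 2.31 nRPKM under anti-Ox40, against 0.31, 0.268 and 0.419 nRPKM under control Ig, and was highest in the same anti-Ox40 library as the lung markers. Of 7 tested lung epithelium markers 6 were higher. Scgb1a1, a secretory protein gene of airway cells, had 41.4, 26.5 and 148 nRPKM under anti-Ox40, and was listed at 0 in control Ig replicate 1 and at 16.4 and 18.2 nRPKM in control Ig replicates 2 and 3. Summed over the 12 listed markers, the level was 45.8 to 234 nRPKM under anti-Ox40 and 5.68 to 34.2 nRPKM under control Ig. At high beads the sums overlapped, at 32.6 to 59.1 nRPKM under anti-Ox40 and 35.5 to 130 nRPKM under control Ig. At low beads none of the 6 was called without control Ig replicate 1 or 3 or without anti-Ox40 replicate 3, and 1 was without anti-Ox40 replicate 1. Their part in the other results was not tested.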

How the data were processed

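The authors deposited one table of nRPKM, that is RPKM with a further normalization between libraries, for 18 libraries, prepared with a TruSeq RNA kit from total RNA per the labels' protocols. GSNAP and the mouse build GRCm38 are named per the submitters' processing notes; the annotation, the read counting and the scaling formula were not given in the sources used here. Reads were not used. The depth stated in the report was read from low values of microRNA genes alone. Multiplied by gene length, these were whole multiples, within 0.1 read, of the best-fitting step found by a search in each library. A count test was not the main test.

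Genes with at least 1 nRPKM in at least 3 of the 18 libraries were kept (13075). limma 3.58.1 (R 4.3.3) was fitted to log2(nRPKM + 1) with 6 group means and a mean-variance trend, and p-values were adjusted by Benjamini-Hochberg over all tested genes at a threshold of 0.05. The script was tested on simulated data. Members, gene lists and motifs were chosen with earlier results of these data known. Genes were named by rule: the Ox40 pair, Il2ra and Cd69, the 20 largest called changes in each direction with separated libraries, the 15 largest in each direction called in all 6 fits that leave out 1 library, up to 6 members of each list by adjusted p plus members a list result turns on, the 10 largest dose differences each way and the 8 genes farthest each way in control Ig replicate 2; other genes named were chosen after their values were seen, and some that the rule gives are not reported here. RefSeq (GRCm38.p6) matched 12009 of 13075 symbols (91.8%). Alternatives were other pseudocounts, filters, scaling and trend settings, only the groups compared, a nuclear RNA covariate, a replicate block and each library left out.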

Additional observations from a re-analysis of the deposited data

Results flagged for a closer look

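The effect of anti-Ox40 differed between bead doses by limma's test of the difference itself. Between low and no beads 35 genes passed it. The effect was larger at low beads for Batf3 (1.28), Mgarp (1.21), Egln3 (1.19), Slc16a3 (1.01), Tpi1 (0.90), Hilpda (0.88), Hk2 (0.87), Deb1 (0.82), Bhlhe40 (0.81) and Ak4 (0.80), as differences of log2 effects.

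Between low and high beads 414 genes passed. The effect at low beads lay above that at high beads for Mgarp (1.11), Nsg2 (1.04), Aldoc (1.02), Slc16a3 (0.97), Dusp6 (0.97), Klf2 (0.93), Pf4 (0.92), F2rl2 (0.91), Tpi1 (0.89) and Nrn1 (0.87). It lay below that at high beads for Bcl2l14 (-1.43), Enpp2 (-1.26), Btla (-1.26), Timp1 (-1.18), Plk2 (-1.14), Il5 (-0.90), Batf3 (-0.88), Tnip3 (-0.80) and Cnn3 (-0.79).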

How the results depend on the processing

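Of 182 genes given by the naming rule and called at low beads, none changed direction under any alternative run, and 47 were called in all 6 fits that leave out 1 library and 23 in every alternative set out at the start. The low-bead count of 1254 became 557 with no filter on low values, 183 with the nuclear RNA covariate, 45 with only the groups compared, and 131 to 3522 with 1 library left out. Without both low-bead replicates numbered 3, an alternative chosen after seeing the data, it was 57. The no-bead count of 18 became 86 and 32 with pseudocounts of 0.1 and 0.5, 9 with no filter, 10 with no trend, 3 with only the groups compared and 0 to 30 with 1 library left out. The high-bead count of 3397 was 2065 to 3363 with 1 library left out. The count of 35 between low and no beads became 21 with the nuclear RNA covariate, 17 with only the groups compared, 14 without both replicates numbered 3 and 19 to 1866 with 1 library left out. The count of 414 between low and high beads became 263 with no filter, 152 with only the groups compared, 20 without both replicates numbered 3 and 102 to 1243 with 1 library left out. The bead count of 10767 was 10473 to 10541 with 1 library left out. The cause of these shifts was not tested, and the nuclear RNA score also followed bead dose. A fit with a replicate block gave counts of 1645 at low beads, 59 without beads, 3771 at high beads, 50 between low and no beads and 692 between low and high beads. It called 11 mitosis and spindle genes at low beads, against 0 without it. The numbers follow accession order and the labels give no pairing, although 18 of 18 libraries correlated best with a library of their own number. Whether libraries of the same number shared a source is not known.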
